A study of Homo sapiens with 8 samples.

Results

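The positions of DAXX peaks were set against H3(Lys4) regions in control PC3 cells. The comparison took all 59761 WT DAXX peaks on chromosomes 1 to 22, X and Y and the 72064 WT H3(Lys4) regions on the same chromosomes, out of 249711 peaks and regions in the 6 lists of the series. Each DAXX peak was placed by its overlap with or gap to the nearest region. No peak height or enrichment entered the choice. PC3 is a prostate cancer cell line grown from a bone metastasis. The series used ChIP-Seq with antibodies to DAXX, to DNMT1 and to a histone H3 form labelled DMHH3(Lys4), whose methylation state the label does not spell out. Each antibody was applied to WT cells and to a derived line in which an shRNA stably lowers DAXX (K/D). Sample labels name the controls WT, whereas the text for the series describes a control-shRNA line, and WT is kept as their name here. Each group was 1 library, so shares and densities carry exact 95% intervals that cover counting error only, and no test between cell lines was possible.

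DAXX is a chaperone of the histone variant H3.3 and a transcriptional co-repressor that reaches DNA through partner proteins rather than through a DNA-binding domain of its own. Methylation of H3 at Lys4 marks promoters and enhancers, with the trimethyl form strongest at active promoters and the monomethyl form at enhancers. At such elements the site held by transcription factors is usually free of nucleosomes, and the marked histones sit on either side of it. A region of histone signal and the peak of a bound factor can therefore lie side by side rather than on top of each other.

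Early peaks of the deposited list, 3 from each position class, show what DNA lay under the antibody. They stood at places 17, 23 and 55 of the list (inside), 3, 7 and 9 (within 1 kb) and 1, 2 and 4 (farther away). They are given on the plus strand of hg19, 5′ to 3′, each 173 bp long, and capitals mark matches on either strand to the transcription factor motifs searched. The first 3 lay inside an H3(Lys4) region, the next 3 within 1 kb of one and the last 3 farther away.
chr12:116966926-116967098, inside: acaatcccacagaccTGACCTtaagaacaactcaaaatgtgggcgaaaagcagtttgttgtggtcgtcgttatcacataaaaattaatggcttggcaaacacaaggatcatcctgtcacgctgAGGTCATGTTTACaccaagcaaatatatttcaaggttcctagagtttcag
chr10:81173127-81173299, inside: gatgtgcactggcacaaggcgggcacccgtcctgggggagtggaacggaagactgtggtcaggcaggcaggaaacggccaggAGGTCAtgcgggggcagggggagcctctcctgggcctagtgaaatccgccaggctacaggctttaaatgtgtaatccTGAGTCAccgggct
chr18:68089463-68089635, inside: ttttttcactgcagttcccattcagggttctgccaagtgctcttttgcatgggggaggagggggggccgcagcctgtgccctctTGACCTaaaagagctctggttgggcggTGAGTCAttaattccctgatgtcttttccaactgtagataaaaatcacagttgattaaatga
chr14:68607077-68607249, near: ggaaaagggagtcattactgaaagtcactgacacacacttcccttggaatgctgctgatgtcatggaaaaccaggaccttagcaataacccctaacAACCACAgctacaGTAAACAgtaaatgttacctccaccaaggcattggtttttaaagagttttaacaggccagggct
chr10:64751935-64752107, near: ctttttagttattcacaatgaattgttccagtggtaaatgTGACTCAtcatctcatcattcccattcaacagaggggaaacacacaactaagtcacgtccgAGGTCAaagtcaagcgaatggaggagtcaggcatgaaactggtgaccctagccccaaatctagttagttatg
chr14:91615970-91616142, near: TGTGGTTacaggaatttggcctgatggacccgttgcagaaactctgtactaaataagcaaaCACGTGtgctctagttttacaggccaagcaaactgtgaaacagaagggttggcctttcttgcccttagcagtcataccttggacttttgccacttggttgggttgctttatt
chr10:33553233-33553405, far: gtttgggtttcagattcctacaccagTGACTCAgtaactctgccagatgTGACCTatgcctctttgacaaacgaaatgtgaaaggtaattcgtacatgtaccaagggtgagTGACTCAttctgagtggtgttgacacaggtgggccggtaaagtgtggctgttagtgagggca
chr14:56269907-56270079, far: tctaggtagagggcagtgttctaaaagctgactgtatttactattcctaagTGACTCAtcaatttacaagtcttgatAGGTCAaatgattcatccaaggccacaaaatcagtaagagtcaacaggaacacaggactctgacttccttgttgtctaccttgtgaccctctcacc
chr10:33624957-33625129, far: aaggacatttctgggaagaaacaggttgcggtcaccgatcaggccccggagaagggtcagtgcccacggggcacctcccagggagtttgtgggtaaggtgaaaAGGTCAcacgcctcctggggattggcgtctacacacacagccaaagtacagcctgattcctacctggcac
The AP-1 heptamer TGACTCA or its complement TGAGTCA was present in 5 of these 9 sequences, in all 3 classes. The nuclear receptor hexamer AGGTCA, or its complement TGACCT, was present in 7 of 9. The FOX heptamer TGTTTAC and the RUNX heptamer TGTGGTT were found in 2 sequences each. In the first peak of the whole list, in an intron of NRP1, AP-1 matches flanked an AGGTCA match.

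DAXX peaks were dense on and beside H3(Lys4) regions. A total of 22338 peaks (37.4%, 95% interval 36.99 to 37.8) shared at least 1 bp with a region, which is called inside here. Another 11677 peaks (19.5%, 19.2 to 19.9) lay within 1 kb of a region without touching it, and 25746 (43.1%, 42.7 to 43.5) lay farther away. Regions covered 78.1 Mb, or 2.73% of the 2858.66 Mb of sequence without assembly gaps. Under a region there were 236 DAXX centres per Mb (232 to 239). In the first 1 kb outside there were 118 per Mb (116 to 120), and farther away 9.79 per Mb (9.68 to 9.91). The density under regions was thus 24.0 times, and that just outside 12.1 times, the density elsewhere. The sequence elsewhere was not limited to stretches where reads map uniquely, which can raise both ratios. Around the same peaks, 30.8% of centres lay under a region, against 5.90% and 5.83% of the positions 10 kb to either side.

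Most inside peaks lay wholly within a region (15972 peaks, 71.5% of those inside), while others only reached across its edge. The centre of the peak lay in the region for 18397 peaks, or 82.4% of those inside, and 6366 peaks, or 28.5%, ran across an edge. The peaks within 1 kb were mostly very close, with a median gap of 153 bp and quartiles of 63 and 362 bp. Of them 65.8% had a gap of at most 250 bp, and 22.1% had a region within 1 kb on both sides. The farther peaks had a median gap of 9090.5 bp. Among these, 32.3% lay within 5 kb of a region and 8.44% more than 50 kb away.

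Counted per Mb of sequence at the same distance from an edge, DAXX centres had 2 maxima, one well inside regions and one just outside their edges. In the band 500 to 1000 bp inside an edge the density was 381 centres per Mb (371 to 391). It was lower towards the edge, with 210 per Mb (203 to 217) at 250 to 500 bp inside and 177 per Mb (172 to 183) at 100 to 250 bp inside. In the first 100 bp outside the edge it was 324 per Mb (315 to 334), above the 191 per Mb (184 to 199) of the last 100 bp inside. At 100 to 250 bp outside it was 247 per Mb, at 250 to 500 bp 92.3 per Mb and at 500 to 1000 bp 37.6 per Mb. From 1 to 2 kb it was 23.7 per Mb, from 10 to 50 kb 9.90 per Mb and beyond 50 kb 2.38 per Mb. Over the 250 bp on each side, the density outside an edge was 1.52 times that inside (1.47 to 1.57). For the first 50% of the DAXX list it was 2.73 times, so this value depended on list order. The highest 50-bp step outside was that from 50 to 100 bp, with 346 centres per Mb (332 to 360).

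**Figure D1:**
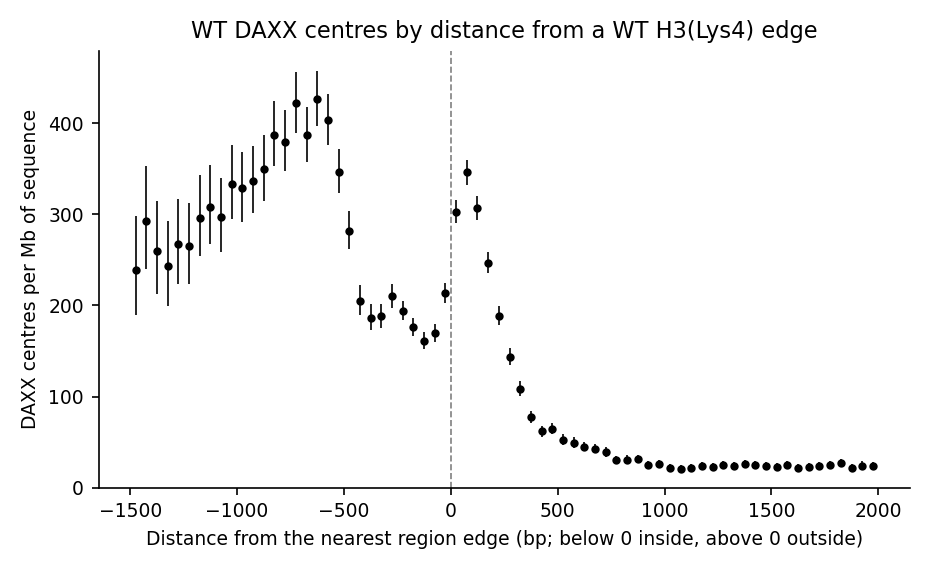
WT DAXX centres per Mb of sequence (y axis) in steps of 50 bp of distance from the nearest edge of a WT H3(Lys4) region (x axis, bp, below 0 inside and above 0 outside), with exact 95% Poisson intervals. The density was 346 per Mb at 50 to 100 bp outside the edge, 162 per Mb at 100 to 150 bp inside it and 426 per Mb at 600 to 650 bp inside.

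A step at the edge was also seen in other pairs of lists, which share sites with this pair. Set against K/D H3(Lys4) regions, K/D DAXX centres were 1.45 times as dense in the 250 bp outside an edge as in the 250 bp inside (1.39 to 1.502). WT DNMT1 centres, which number 2234, gave 1.48 (1.26 to 1.74) against the WT regions. The split into classes did differ between the cell lines. In K/D cells 28.7% of DAXX peaks (28.2 to 29.1) were inside, 24.0% within 1 kb and 47.3% farther. The K/D regions covered 64.4 Mb against 78.1 Mb in WT, with a median width of 644 bp against 756 bp. Knockdown and library cannot be told apart here, since each list is 1 library. WT DNMT1 peaks, with 37.7% inside (35.7 to 39.7), 21.1% within 1 kb and 41.2% farther, were split much as the WT DAXX peaks were.

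Where DAXX sat within a region depended on the width of the region. In regions of 1000 to 1499 bp, 39.5% of the 3532 DAXX centres (37.9 to 41.2) lay in the middle 20% of the width, and in regions of 1500 to 1999 bp 37.7% of 2565 centres did (35.8 to 39.6). Even spread would put 20% there. In these widths the outer parts, the first and last 20% together, held 24.5% and 20.4% of centres. In wider regions the middle share was 26.5% at 2000 to 2999 bp, 22.7% at 3000 to 4999 bp and 19.9% (16.9 to 23.1) from 5000 bp up. In the 24806 regions of the smallest width, 501 bp, the middle 20% held 20.5% of 2189 centres (18.8 to 22.2). In regions of 502 to 750 bp it held 16.0% (14.3 to 18.0). The 2 sides were not quite even in the smallest regions, where the part at the higher coordinate held 24.0% of centres (22.2 to 25.8) and the part at the lower coordinate 19.1% (17.5 to 20.8).

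**Figure D2:**
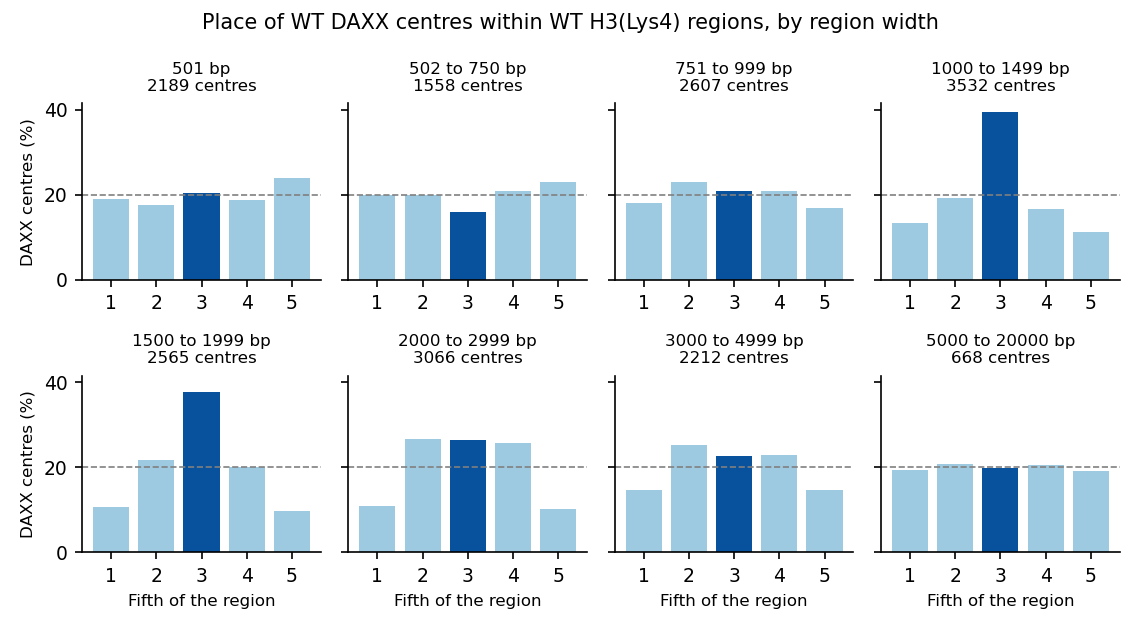
Share of WT DAXX centres (y axis, %) in each 20% of the width of WT H3(Lys4) regions (x axis, numbered from the lower coordinate), in 8 classes of region width, with the middle part dark and a dashed line at 20%. The middle part stands out in regions of 1000 to 1499 bp (39.5%) and 1500 to 1999 bp (37.7%) and is at 19.9% from 5000 bp up.

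The way the regions were called bears on these distances. Per the file headers, the H3(Lys4) caller took windows of 500 bp and joined those closer than 1000 bp, so 34.4% of regions have the smallest width and no gap between regions is below 499 bp. A position more than 250 bp inside an edge exists only in regions wider than 501 bp. An edge is therefore the end of a 500-bp window, not a measured boundary of the mark. A joined region can also hold a stretch between its windows that no window covered, so a centre inside a region need not lie on a called window. The part of window edges and of joining in the 2 maxima, in the middle shares and in the densities of narrow gaps was not tested.

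Wider regions held a DAXX peak more often, while the density per base was highest at middle widths. Of all 72064 regions, 20112 (27.9%, 27.6 to 28.2) had a DAXX peak, and another 12333 (17.1%) had none on them but 1 within 1 kb. The share with a peak was 14.4% of regions of 501 bp, 36.3% at 1000 to 1499 bp, 50.5% at 2000 to 2999 bp and 76.0% (72.2 to 79.5) from 5000 bp up. The density was highest at 1000 to 1499 bp, with 271 centres per Mb (262 to 280), against 176 per Mb (169 to 184) in 501-bp regions and 191 per Mb (176 to 206) from 5000 bp up. Regions with DAXX had a median width of 1104 bp, those without 649 bp. Of the regions with DAXX, 18107 had 1 peak, 1803 had 2 and 202 had 3 or more. Neighbouring DAXX centres in the same region were a median of 943.5 bp apart (quartiles 629 and 1486 bp, 2226 pairs).

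The narrow gaps between neighbouring regions were the densest sequence for DAXX among the bands and gaps measured. In gaps of 499 to 600 bp there were 575 centres per Mb (534 to 618), against 236 per Mb under regions. In gaps of 600 to 750 bp there were 452 per Mb (422 to 484), in gaps of 1000 to 1500 bp 236 per Mb and in gaps of 2000 to 3000 bp 94.8 per Mb. In the narrowest gaps the centres were spread almost evenly, with 17.9% (15.2 to 20.9) in the middle 20%. In wider gaps they lay towards the edges. In gaps of 2000 to 3000 bp the 20% at either end together held 70.8% of centres (67.5 to 73.9), and the middle 20% held 8.19% (6.37 to 10.3).

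The order of the deposited DAXX list, in which the caller writes strong peaks first, went with position. Among the first 10% of the list, 31.4% of peaks (30.2 to 32.6) lay within 1 kb of a region without touching it, against 9.50% (8.77 to 10.3) of the last 10%. The share inside was 29.1% in the first 10%, reached 40.8% (39.6 to 42.1) in the seventh and was 38.6% in the last. The share farther away went from 39.5% to 51.9%. Of the first 100 peaks, 38 lay within 1 kb, 11 inside and 51 farther away. The median place in the list was 21634 for peaks within 1 kb, 31678.5 for those inside and 32389 for those farther away. The top of the list was uneven across chromosomes. Chromosomes 8, 10 and 14 together held 64 of the first 100 peaks and 22.1% of the first 10%, but 13.4% of all peaks. Without these 3 chromosomes, 31.4% of the first 10% and 9.49% of the last 10% lay within 1 kb.

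**Figure D3:**
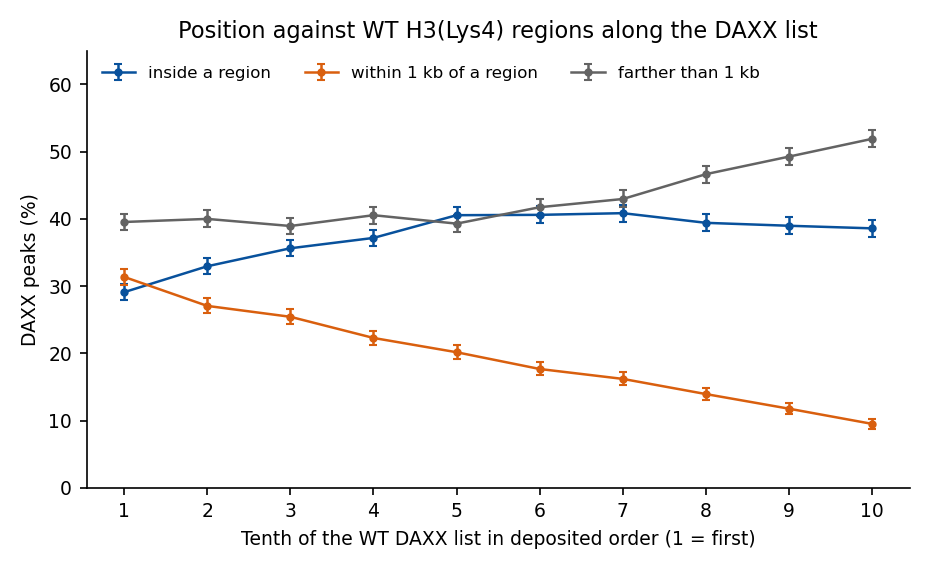
Share of WT DAXX peaks (y axis, %) inside an H3(Lys4) region of WT cells, up to 1 kb outside or farther away, in each 10% of the DAXX list in deposited order (x axis, 1 is the first), with exact 95% binomial intervals. The share within 1 kb runs from 31.4% in the first to 9.50% in the last 10%.

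Seen from the DAXX centre, the same relation was a dip in H3(Lys4) at peaks early in the list and a summit at late ones. For the first 25% of the list, 23.2% of centres lay under a region, while 34.4% of positions 500 bp to the left and 36.2% of those 500 bp to the right did. For the last 25% of the list the order was turned round, with 35.1% of centres under a region and 23.3% and 24.6% of the positions 500 bp away. Over all peaks the curve was nearly flat in the middle, with 30.8% at the centre, 33.5% at 200 bp to the left and 33.9% at 200 bp to the right. At 3 kb it was 8.16% and 8.24%, and at 50 kb 4.72% and 4.83%, against the 2.73% of sequence that regions cover. Taken peak by peak, 400 bp to each side, a region on 1 side but not on the centre was the commonest arrangement among peaks with any region there (11825 peaks, 19.8%). The centre and both sides were covered for 9345 peaks (15.6%). A region on both sides with the centre bare was rare, at 481 peaks (0.805%, 0.735 to 0.880). Neighbouring regions are at least 499 bp apart, so only narrow gaps could give this arrangement, and its rarity says little about DAXX.

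**Figure D4:**
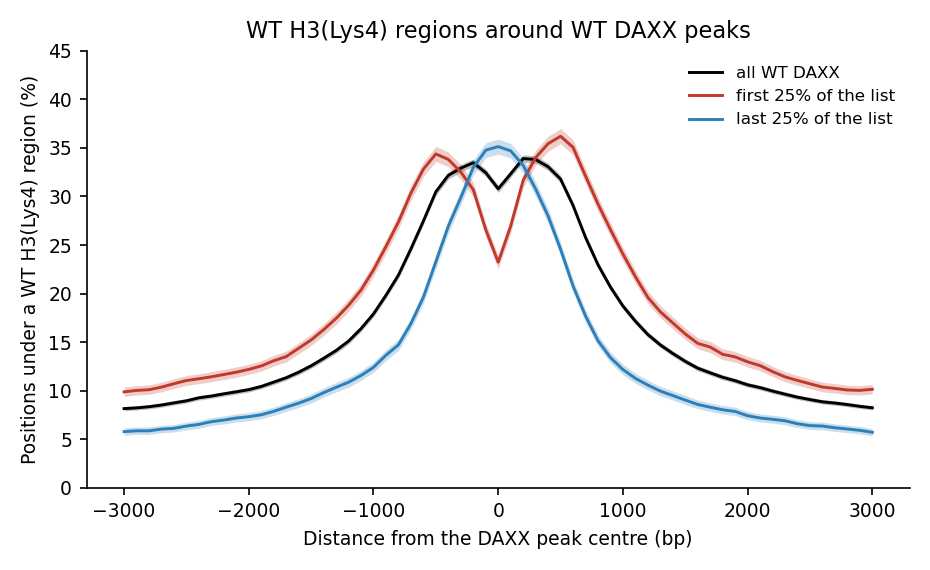
Share of positions under a WT H3(Lys4) region (y axis, %) at distances of up to 3 kb from WT DAXX centres (x axis, bp), for all peaks and for the first and last 25% of the DAXX list, with shaded exact 95% binomial intervals. At the centre the first 25% stands at 23.2%, between maxima of 34.4% and 36.2% at 500 bp on either side, and the last 25% at 35.1%.

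By genome annotation, most peaks of every class lay away from promoters. Promoters ran from 1000 bp before to 100 bp after the transcription start site (TSS) of a protein-coding transcript. They held 9.02% of inside peaks (8.65 to 9.41), 11.5% of those within 1 kb (10.95 to 12.1) and 3.301% of those farther away (3.09 to 3.53). Introns held 46.3%, 43.2% and 44.9%, and intergenic sequence 41.7%, 42.7% and 49.3%. Promoter DAXX peaks were most frequent at 250 to 1000 bp outside an edge (14.2% of the peaks there, 13.3 to 15.2) and over 500 bp inside (12.4%, 11.7 to 13.2). In the first 250 bp inside an edge 6.55% (5.97 to 7.18) were at promoters. The median distance to a TSS was 29647.5 bp for inside peaks, 32461 bp for those within 1 kb and 45539.5 bp for the rest.

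At promoters the H3(Lys4) region lay about as often upstream as downstream. Of 4212 promoter peaks, 20.4% (19.2 to 21.7) had a region 400 bp to the upstream side only, 18.2% (17.1 to 19.4) to the downstream side only and 28.6% on both sides. Farther out the profile was one-sided, with 55.2% of positions 1000 bp downstream under a region and 32.2% of those 1000 bp upstream. GC content in the 201 bp around the centre was alike across classes away from promoters, with a median of 43.3% inside, 43.8% within 1 kb and 43.8% farther away, for peaks at least 2 kb from a TSS. At promoters it was 63.2%, 65.2% and 60.2%.

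AP-1 was the most frequent of the motifs searched in each of the 3 classes, though not among promoter peaks. AP-1 factors are dimers of FOS and JUN proteins that bind TGACTCA at enhancers. Within 100 bp of the centre AP-1 was present in 34.4% of inside peaks (33.8 to 35.1), 35.4% of peaks within 1 kb (34.6 to 36.3) and 38.1% of farther peaks (37.5 to 38.7). Windows of the same length 2 kb to either side held it in 3.33%, 3.24% and 3.12%. At least 2 kb from a TSS the shares were closer, at 38.0%, 39.8% and 39.1%. Among promoter peaks AP-1 was present in 12.2% inside (10.8 to 13.7), 8.10% within 1 kb (6.70 to 9.69) and 18.2% farther away (15.7 to 21.0), below SP1 and the nuclear receptor motif. By position it was 39.4% (38.4 to 40.3) in the first 250 bp outside an edge. More than 10 kb outside it was as frequent, at 39.3% (38.4 to 40.2). The first 250 bp inside had 34.0% (32.8 to 35.1) and the band 250 to 1000 bp outside 32.2% (30.9 to 33.4).

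Other motifs were distributed differently. The nuclear receptor hexamer AGGTCA, a short word found in 13.8% of flanking windows, was in 28.1% of inside peaks (27.5 to 28.6), 28.3% of those within 1 kb and 34.5% of farther peaks (33.9 to 35.1). For the first 50% of the DAXX list these shares were closer, at 34.0%, 30.9% and 35.4%. The SP1 motif GGGCGGG, typical of GC-rich promoters, was in 6.59%, 7.55% and 2.81%. Among promoter peaks alone it was in 34.8% inside (32.7 to 36.9), 42.5% within 1 kb (39.8 to 45.2) and 28.2% farther away (25.2 to 31.4). CTCF, which organises chromatin loops at insulators, had matches to the consensus searched in few peaks, but in a graded way. Sites that depart from this consensus were not counted. The motif was in 0.412% of inside peaks (0.332 to 0.505), 0.659% within 1 kb (0.521 to 0.823) and 1.32% farther away (1.19 to 1.47). Flanking windows held it in only 0.101%, 0.0599% and 0.0913%. Among peaks more than 10 kb out it was in 1.49% (1.28 to 1.72). The RUNX motif was in 7.96%, 9.15% and 9.61%, the FOX motif in 8.09%, 7.999% and 8.34%, the ETS motif CNGGAAGT in 5.91%, 6.05% and 5.36% and the TEAD motif GGAATGT in 5.25%, 4.85% and 4.70%. The NF-kB motif GGGNNTTCC was in 3.23%, 2.96% and 2.59%. The GATA motif AGATAAG was in 2.58%, 2.28% and 2.92%, near the 2.80% of flanking windows.

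**Figure D5:**
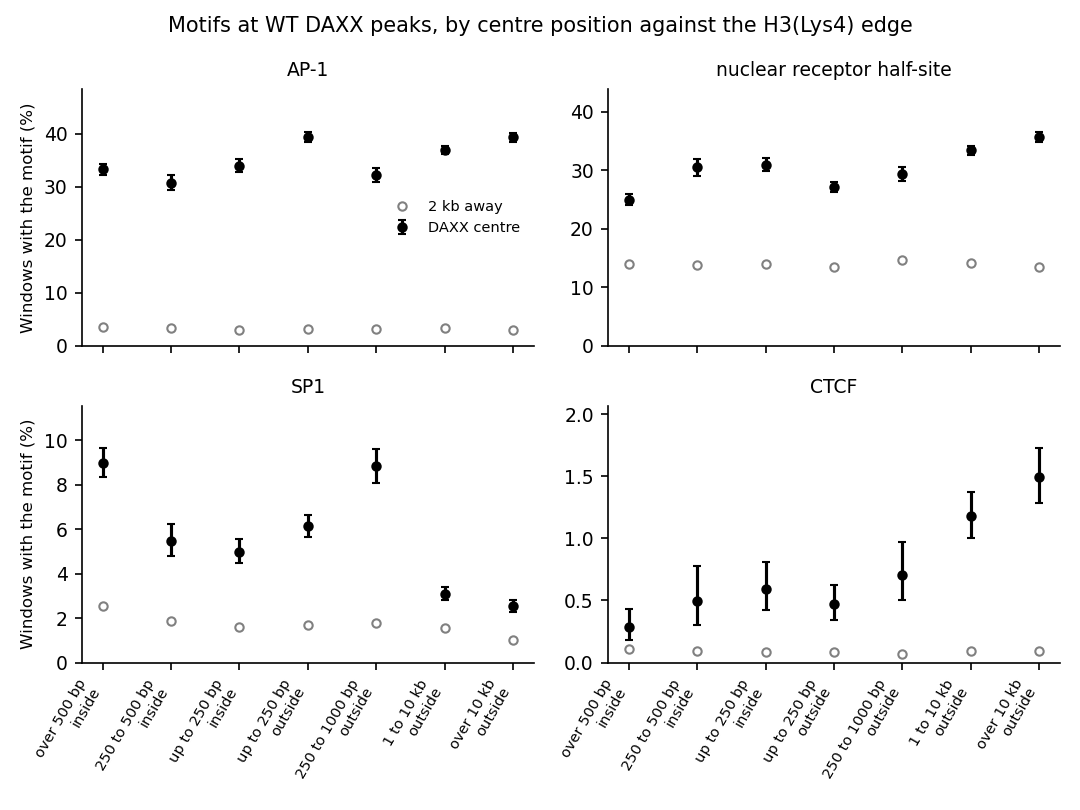
Share of windows with an AP-1, nuclear receptor, SP1 or CTCF motif (y axes, %) within 100 bp of WT DAXX centres (filled, with exact 95% binomial intervals) and in windows 2 kb to either side (open), for 7 bands of distance from the nearest WT H3(Lys4) edge (x axis). AP-1 is at 39.4% in the first 250 bp outside an edge, 34.0% in the first 250 bp inside and 39.3% more than 10 kb out. CTCF is highest, at 1.49%, more than 10 kb out.

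The first peaks of the list in each class can be named. Farther from any region, the first peak of the list was intronic in NRP1, the gene of neuropilin-1, a co-receptor for VEGF and semaphorins. It lay 7835 bp from the nearest edge and 69991 bp from the TSS. Another NRP1 peak, at place 4 of the list, lay 147 bp downstream of a NRP1 TSS, 5499 bp from a region, on a WT DNMT1 peak. The other farther peaks named lay 142001 bp from the KTN1 TSS, in an intron of ANXA11 and 590775 bp upstream of ANKRD30A. The NRP1 peak at place 2949 was inside a region of 5584 bp and 8291 bp from the TSS. DAXX peaks at this gene thus lay both inside a called region and farther than 1 kb from any called region. Of the peaks within 1 kb, the first was in an intron of RAD51B, which encodes a recombination protein, 170 bp outside a region. Others lay in introns of CCN4 (142 bp outside a region), SNX31 (143 bp) and DGLUCY (233 bp). The peak 208 bp outside a region was intergenic, 140986 bp upstream of the TSS of NRBF2, which encodes an autophagy factor.

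The first inside peaks all sat deep in their regions. The peak at place 17, 30174 bp upstream of the MAP1LC3B2 TSS, lay 689 bp inside a region of 5122 bp that held 2 DAXX peaks. The one in an intron of ZCCHC24 was 669 bp inside a region of 1344 bp, so close to its middle. The others lay 958 bp inside a region 108123 bp from the SOCS6 TSS, 829 bp inside a region at the promoter of SLC45A4 and 788 bp inside one in an intron of TWF1. All 15 of these named peaks also had a peak in K/D cells, against 48.4% of all WT DAXX peaks. They come from the top of the list, where such overlap was more frequent. Of the 15, 12 were on chromosomes 8, 10 or 14.

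Gene lists are described by where the DAXX peaks within 10 kb of a TSS stood to H3(Lys4). Over all 19785 protein-coding genes, 30.4% had an inside DAXX peak within 10 kb, 17.7% one within 1 kb of a region and 22.2% one farther away, and 48.8% had none. Genes can count in more than one class. Of 20 adhesion and invasion genes of epithelial tumour cells, 14 had an inside peak, 10 a peak within 1 kb of a region and 2 none. PLAU, which encodes urokinase, had a DAXX peak 1980 bp upstream of its TSS. The peak lay 1017 bp inside the region that stands first in the H3(Lys4) list, which is 6850 bp wide and spans the TSS. ITGA3, an integrin subunit, had a peak whose centre was 21 bp inside an edge.

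Among 18 genes for ETS, RUNX, TEAD and FOX factors, 11 had an inside peak (61.1%, against 30.4% over all genes). ETS2 had 5 inside peaks, the first of them 1251 bp inside a region of 3075 bp with a match to AP-1. The RUNX1 peak that came first had its centre 21 bp outside a region of 6165 bp, and that at FOXA1, a pioneer factor, 57 bp outside one of 4378 bp. Of 11 AP-1 subunit genes, 7 had an inside peak (63.6%), 6 a farther one (54.5%) and 1 none (9.09%). Over all genes these shares were 30.4%, 22.2% and 48.8%. FOSL1, a partner of JUN, had 2 inside and 3 farther peaks. MAFF had 2 inside peaks, and BATF had 1 inside and 1 farther.

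Of the 33 core autophagy genes, 12 had an inside peak, 5 had only farther peaks and 13 had none, against 30.4% with an inside peak and 48.8% with none over all genes. ATG16L1, which acts in the conjugation step of autophagosome growth, had 2 inside peaks, the first 1675 bp inside a region of 3630 bp. ATG7, the activating enzyme of that step, had 1 inside peak 6595 bp from its TSS, and ATG2A, a lipid transfer protein, had 2. ULK1, the kinase that starts autophagy, had 1 peak 1576 bp downstream of a TSS, 147 bp inside a region of 1262 bp, at place 34843 of the list and with no peak in K/D cells. DAPK3, a death-associated protein kinase, had 1 peak 1106 bp downstream of a TSS, and the nearest H3(Lys4) region was 14732 bp away.

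Of 19 genes that write or erase H3 Lys4 methylation, 10 had an inside peak (52.6%, against 30.4% over all genes). The first were those at SETD7, a methyltransferase, DPY30, a subunit of the COMPASS-type complexes, and SETD1B, whose peak lay 2235 bp inside a region of 7609 bp. Of 16 genes for DAXX, its partners and H3.3 chaperones, 9 had an inside peak (56.25%) and 3 none (18.75%, against 48.8% over all genes). The HDAC1 peak was 90 bp upstream of a TSS and 2235 bp inside a region of 4992 bp. At the gene for H3.3, named H3-3A in the annotation, the centre was 292 bp downstream of a TSS and 84 bp inside an edge. The inside peak counted for DAXX itself lay 388 bp upstream of the neighbouring gene TAPBP, 8304 bp from a DAXX TSS. Of 12 androgen-regulated luminal genes 5 had an inside peak (41.7%) and 6 none (50%). Over all genes these shares were 30.4% and 48.8%. The peak at TMPRSS2 was 86 bp upstream of a TSS, and those at SLC45A3 and NDRG1 were in introns. Of 11 genes of other cell types 2 had an inside peak (18.2%), GFAP with 1 and CDH5 with 3, and 8 had none (72.7%). Counting ULK1, 19 of the 24 genes named for an inside peak had a K/D DAXX peak at the same place. The share over all inside peaks was 45.8%, but apart from that of ULK1 the named peaks were picked as the earliest in the list. Of the 24 peaks, 4 were in a promoter.

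The regions with the most DAXX peaks were wide. A region of 9898 bp with 2 GLIS1 starts, one of 7187 bp with 4 starts of GLI3, which encodes a Hedgehog pathway factor, and one of 6658 bp that lay 73173 bp from the ADGRG6 start each held 5 DAXX peaks. The widest region of the list, 17767 bp in the HOXA cluster around HOXA10, held 4, as did one of 12263 bp near MAST4. The widest regions without any DAXX peak were nearly as wide. They included those at UBE2E3 (10412 bp), SEMA7A (9712 bp), BAHCC1 (9660 bp) and LDB1 (8740 bp).

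Peaks of the 3 classes were found again in K/D cells at different rates, and the differences changed with list order. Over all WT DAXX peaks, 28901 of 59761 (48.4%) overlapped a K/D DAXX peak. The share was 45.8% of inside peaks (45.1 to 46.4), 55.1% of peaks within 1 kb (54.2 to 56.0) and 47.5% of farther peaks (46.9 to 48.2). Within the first 25% of the list it was 83.8% of inside peaks (82.8 to 84.9), 82.0% within 1 kb (80.8 to 83.1) and 82.9% farther away (81.9 to 83.8). Within the last 25% it was 17.1% (16.1 to 18.0), 19.0% (17.1 to 20.9) and 21.1% (20.2 to 22.1). The higher share of the peaks within 1 kb was thus not seen within these parts of the list, while inside peaks were below farther peaks in the last 25%. Of the farther peaks, 13.8% (13.4 to 14.3) had their centre in a K/D H3(Lys4) region, against 4.15% and 3.64% of the positions 10 kb to either side, so part of them lay at sites that only the K/D list called. A WT DNMT1 peak overlapped 2.30% of inside peaks (2.104 to 2.502), 2.31% of those within 1 kb and 1.52% of farther ones (1.37 to 1.68).

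Chromosomes differed in the split. The share inside ranged from 29.9% on chromosome 8 to 43.9% on chromosome 16, with a median of 38.0% over 23 chromosomes. The tag totals in the headers were 15208845 for WT DAXX and 16248943 for WT H3(Lys4), with 15.8% and 23.9% of tags in peaks, and each total joins an old and a new sequencing run. Defining genes of the cell line were marked in part. A TSS of KRT8, KRT18, VIM and CD44 lay in an H3(Lys4) region, 4 of 6 epithelial and PC3 markers, while EGFR and CAV1 had none. Among luminal markers TMPRSS2 did, and among 11 markers of other cell types none did. Over all 19785 protein-coding genes, 29.2% had a TSS in a region.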

How the data were processed

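ChIP-Seq was performed with 1 library per group, grouped by the sample titles. The authors used CASAVA 1.8.2 for base calling, Bowtie2 2.1.0 for alignment against hg19 and HOMER 4.6 for peak calling with the matched input as control. Per the file headers, DAXX peaks had a fixed size and passed an FDR of 0.001, with a 4-fold excess over input and over the surrounding 10 kb. H3(Lys4) regions were stitched from 500-bp windows at a Poisson p-value of 0.001. The score column that the authors deposited holds 1 value for all peaks, so the deposited order was used as the order of strength. HOMER writes lists in that order, which is less certain for H3(Lys4). The start and end positions as deposited were the only values used.

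Overlaps, signed edge distances and densities per Mb of sequence outside assembly gaps were computed in Python 3.11.15 with numpy 2.4.6 and scipy 1.17.1, and plotted with matplotlib 3.10.9. The code was tested on simulated regions and peaks. Sequence came from GRCh37, the build of hg19, and 63781 transcript starts of 19785 protein-coding genes from GENCODE 44 mapped to it. Across the series 113 peaks on other contigs were left out. Motifs, 13 consensus sequences, were looked for in both orientations in the 100 bp to each side of a centre, and overlapping matches of different motifs were each counted. Those not described were rare or near the flanking windows over all peaks, but not all were so at promoters. Among promoter peaks the E-box CACGTG was in 7.64% inside, 6.24% within 1 kb and 5.76% farther away. Flanking windows there held it in 2.33%, 1.82% and 1.88%. The CRE motif TGACGTCA was in 1.49%, 1.78% and 1.53% of promoter peaks, against 0.0992%, 0.0743% and 0.235% of flanking windows.

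Named peaks were the first 5 of each class, with the gene of the nearest TSS. Named genes were up to 3 per list whose inside peak within 10 kb of a TSS comes first, with ULK1, DAPK3 and NRP1. Printed sequences were the first 3 of each class, without chromosome 8. Some items that these rules name are not reported here. Named regions were the 5 with the most DAXX peaks and the 5 widest without one. The members, the gene lists and the motifs were chosen with earlier results of these data known. Alternatives covered the overlap rule, the gap limit, stricter parts of each list, joined regions and left-out chromosomes. With 1 library per group no p-value was computed.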

Additional observations from a re-analysis of the deposited data

How the results depend on the processing

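The share of DAXX peaks inside a region, 37.4%, was 30.8% with the centre inside or with at least 50% of the peak inside, and 26.7% with the whole peak inside. It was 35.1% for the first 50% of the DAXX list, 27.4% with the first 50% of the H3(Lys4) list, 40.5% with regions up to 1000 bp apart joined, 38.0% without chromosomes 8 and 10 and, in an alternative added after seeing the data, 31.4% with regions wider than 501 bp only. A minimum width of 500 bp changed nothing, since no region is narrower. The share within 1 kb, 19.5%, was 16.3% for gaps of at most 500 bp, 23.9% for at most 2000 bp and 25.3% for the first 50% of the DAXX list. The ratio of densities outside and inside an edge, 1.52, was 2.73 for the first 50% of the DAXX list and 1.62 for regions of at least 1000 bp. It moved by less than its interval at least 2 kb from a TSS (1.502) and without chromosomes 8 and 10 (1.495). The share in the middle 20% of regions, 27.5%, was 31.6% in regions of at least 1000 bp, 28.9% for the first 50% of the DAXX list and 29.0% in regions with 1 DAXX centre. The share in the middle 20% of gaps of 1000 to 3000 bp, 11.5%, was 14.9% in gaps of 500 to 1500 bp and, added after seeing the data, 16.9% in gaps of 499 to 750 bp. Of regions of at least 1000 bp, 44.6% had a DAXX peak, 41.7% with the centre inside and 23.7% with the first 50% of the DAXX list. The share of inside peaks at promoters, 9.02%, was 16.8% within 2000 bp of a TSS. The AP-1 share of inside peaks minus that of farther peaks, -3.63 percentage points, was -2.66 for the first 50% of the DAXX list and -1.14 at least 2 kb from a TSS. The share kept in K/D cells, inside minus farther, was -1.76 percentage points over all peaks. It turned to 0.988 in the first 25% of the list and was -0.240, -4.11 and -4.07 in the next 3 parts, and the cause was not tested. The share of K/D DAXX inside K/D regions, 28.7%, was 23.04% with the centre inside, also an added alternative. No paired analysis was possible because each group is 1 library.

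Each list is 1 library, so intervals cover counting error alone and say nothing of the spread between cultures. Peaks pass or fail fixed limits, and a peak outside a region lies where no region was called, not where the mark is shown to be absent. Region edges follow 500-bp windows, so distances under that size are coarse. Depth differs little between the DAXX and H3(Lys4) libraries of WT cells (15208845 and 16248943 tags), but the number of regions called at either depth sets the share inside.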
